A study of Mus musculus with 2 samples.

Results

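The 10 genes described here mark conventional and plasmacytoid dendritic cells. They were chosen by symbol as known genes of these subsets (Flt3, Zbtb46, Xcr1, Clec9a, Itgae, Cd209a, Siglech, Ccr9, Tcf4 and Bcl11a), and each matched 1 of the 55401 gene rows of the deposited table. Their expression was read from sequenced poly(A) RNA of MDSCs (myeloid-derived suppressor cells), which are immature neutrophil-like and monocyte-like cells that restrain T cells in tumours. The cells came from C57BL/6 mice aged 8 weeks that carried MC38 tumours, a mouse colon carcinoma line. They were separated by magnetic beads and then cultured together with MC38 cells for 24 h. Both groups carried floxed Mettl3 alleles (Mettl3fl/fl). The floxed control had no Cre (1 library) and the other group also carried LysM-cre (1 library), a Cre recombinase driven from the lysozyme 2 locus. LysM-cre is known to act in monocytes, macrophages and neutrophils and in only a part of dendritic cells. A treatment field of the LysM-cre sample gives the tumour line as MC39, and all other fields give MC38. The sources used here do not give whether mice were pooled for a library.

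Dendritic cells take up antigen and present it to T cells. Conventional dendritic cells of type 1 (cDC1) present antigen from dead cells to CD8 T cells, those of type 2 (cDC2) mainly prime CD4 T cells, and plasmacytoid dendritic cells (pDCs) are known for secreting type I interferon. All of them depend on the growth factor FLT3L, which acts through the receptor FLT3. In tumours, cDC1 are known for carrying tumour antigen to lymph nodes, and MDSCs arise from precursors that lie close to those of dendritic cells.

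Tcf4 encodes E2-2, an E protein that maintains the pDC fate and binds the E-box, the motif CANNTG. For this reason the upstream sequences of 3 pDC genes are shown. They are the 250 bases before the RefSeq start (GRCm38.p6, the same assembly as mm10), given 5′ to 3′ on the strand of the gene with each CANNTG in capitals. The Siglech sequence lies at chr7:55767934-55768183 (plus strand), that of Ccr9 at chr9:123766961-123767210 (plus strand) and that of Bcl11a at chr11:24080445-24080694 (plus strand). The Ccr9 and Bcl11a windows lie inside the spans of their gene rows given below, which start further upstream than the RefSeq start used.
Siglech: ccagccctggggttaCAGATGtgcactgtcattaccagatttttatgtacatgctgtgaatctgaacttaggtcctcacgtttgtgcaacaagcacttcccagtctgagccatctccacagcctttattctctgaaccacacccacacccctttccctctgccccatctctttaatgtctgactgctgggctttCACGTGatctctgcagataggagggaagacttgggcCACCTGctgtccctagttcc
Ccr9: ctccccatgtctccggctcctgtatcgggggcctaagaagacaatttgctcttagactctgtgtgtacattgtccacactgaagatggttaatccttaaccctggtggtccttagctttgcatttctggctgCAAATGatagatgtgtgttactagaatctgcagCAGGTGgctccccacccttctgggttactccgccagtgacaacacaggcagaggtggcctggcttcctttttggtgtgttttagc
Bcl11a: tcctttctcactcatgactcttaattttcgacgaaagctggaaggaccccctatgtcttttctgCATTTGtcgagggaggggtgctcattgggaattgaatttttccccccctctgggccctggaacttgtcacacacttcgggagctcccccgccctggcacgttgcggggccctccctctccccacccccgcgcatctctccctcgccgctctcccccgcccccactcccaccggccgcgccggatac
Siglech had 3 E-boxes in this window, Ccr9 had 2 and Bcl11a had 1. CANNTG reads the same on both strands, and 66.2% of the 32851 promoters in the RefSeq table held it in a window of this length. The narrower forms CACCTG or CAGGTG, which are 1 motif on opposite strands and are contained in CANNTG, were present in 17.2% of promoters. Siglech held CACCTG 20 bases and Ccr9 CAGGTG 85 bases before the start, counted from the first base of the motif, and Bcl11a held neither. Of the 10 genes, 8 had an entry in the promoter table, and all 8 held CANNTG. The motif did not set the pDC genes apart, since Zbtb46, a gene of the conventional lineage, had the most E-boxes (5), Cd209a had 2, and Clec9a, Flt3 and Xcr1 had 1 each. CACCTG or CAGGTG was present in 3 of the 8, which were Siglech, Ccr9 and Zbtb46. A match of letters is a description and not a binding site.

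Both libraries were of nearly equal depth, with 59506878 counts in the floxed control and 59393864 in the LysM-cre-labelled library. The targeted gene did not separate them over its whole length. Mettl3 held 1413 and 1333 counts, and its CPM ratio (count over library total, LysM-cre over control) was 0.945 with an exact 95% interval of 0.876 to 1.02, so directions are given for "the LysM-cre-labelled library". Genes of the labelled cell type were abundant, with all 12 neutrophil and all 13 monocyte markers detected in each library. RNA of other cells was present as well, since all 14 B cell markers and all 16 T cell markers were detected too. With 1 library per genotype there is no replicate spread and no test, and every interval covers counting error only. In whole libraries, fewer cells of a type and less RNA per cell cannot be told apart.

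All 10 dendritic cell genes were detected in both libraries, at low to middle levels. FPKM (fragments per kilobase of exon after scaling for depth) ranged from 0.300 for Xcr1 to 10.3 for Cd209a in the floxed control and from 0.245 to 9.92 for the same genes in the LysM-cre-labelled library. Among protein-coding rows with at least 50 counts over both libraries, the mean level of Cd209a lay at the 69.1th percentile, that of Siglech at the 52.5th and that of Xcr1 at the 7.15th. In the floxed control the order from high to low was Cd209a, Siglech, Flt3, Clec9a, Bcl11a, Tcf4, Ccr9, Itgae, Zbtb46 and Xcr1. The LysM-cre-labelled library had the same order except that Zbtb46 stood above Itgae. Neighbours whose exact Poisson intervals overlapped in the floxed control were Siglech and Flt3, Tcf4 and Ccr9, and Itgae and Zbtb46. In the LysM-cre-labelled library the only such neighbours were Flt3 and Clec9a. 

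**Figure D1:**
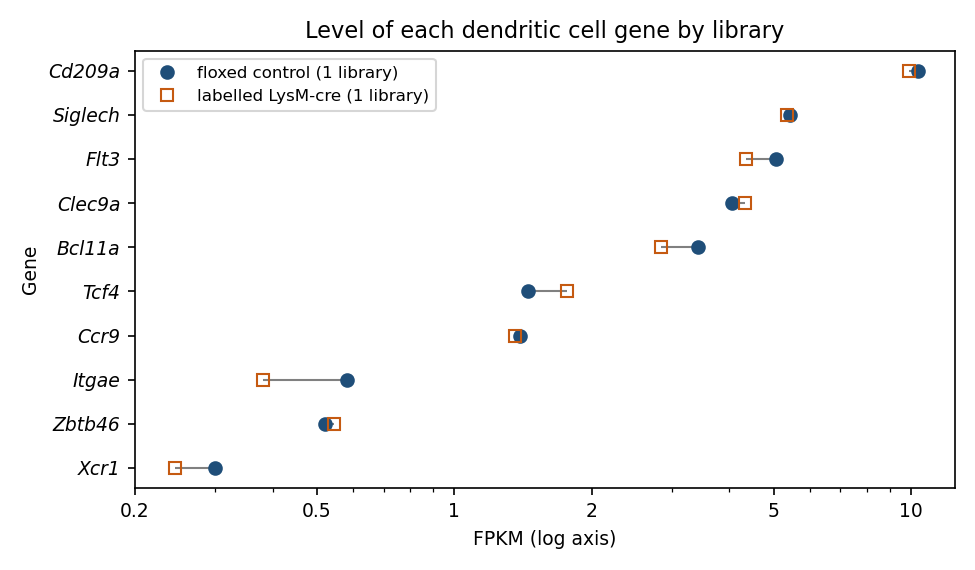
FPKM (log axis) of each of the 10 dendritic cell genes in the floxed control library (filled circles) and the LysM-cre-labelled library (open squares), ordered by the control, with no error bars because each group has 1 library. The points of Cd209a lie highest at 10.3 and 9.92, and the widest gap is that of Itgae, at 0.583 and 0.381.

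The deposited FPKM divides by the length of all exons of a gene together. For the 10 genes, FPKM times the exon length of GENCODE M21 over the count differed by at most 0.910%. This lowers the level of genes with many long alternative exons, such as Tcf4 (27382 bases of exon, against 8577 in its longest principal transcript) and Clec9a (3293 against 1020). Per kilobase of the principal transcript, Clec9a had the highest value of the 10 genes, with 875 counts per kilobase in the floxed control and 931 in the LysM-cre-labelled library. Cd209a followed with 738 and 707. The order among these genes therefore depends on the length used, whereas ratios between the libraries do not. Values per kilobase of the principal transcript use all counts of a row, so reads from exons outside that transcript raise them. The Clec9a row also overlaps Clec1b on the same strand, and how reads there were assigned was not tested.

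No dendritic cell gene reached a 2-fold difference between the libraries. The count was 0 of 10 at a CPM ratio of at least 2 or at most 0.5. Of all 16257 rows with at least 50 counts, 7.53% passed that rule (3.86% higher and 3.67% lower). With only 10 genes, a count of 0 cannot be told apart from that share. The ratios ran from 0.651 for Itgae to 1.22 for Tcf4, with 3 genes above 1 and 7 below. Their median log2 CPM ratio was −0.05, against 0.00 for all rows kept. The size of the difference without its sign had a median of 0.16 for these genes and 0.17 for all rows kept, on the log2 scale. The interval of the ratio lay wholly between 0.5 and 2 for all 10 genes. It left out 1 for 4 of 10, below 1 for Itgae, Bcl11a and Flt3 and above 1 for Tcf4, and it did so for 57.6% of all rows kept. At this depth an interval beyond 1 was thus common, and the share among the dendritic cell genes was not above it.

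**Figure D2:**
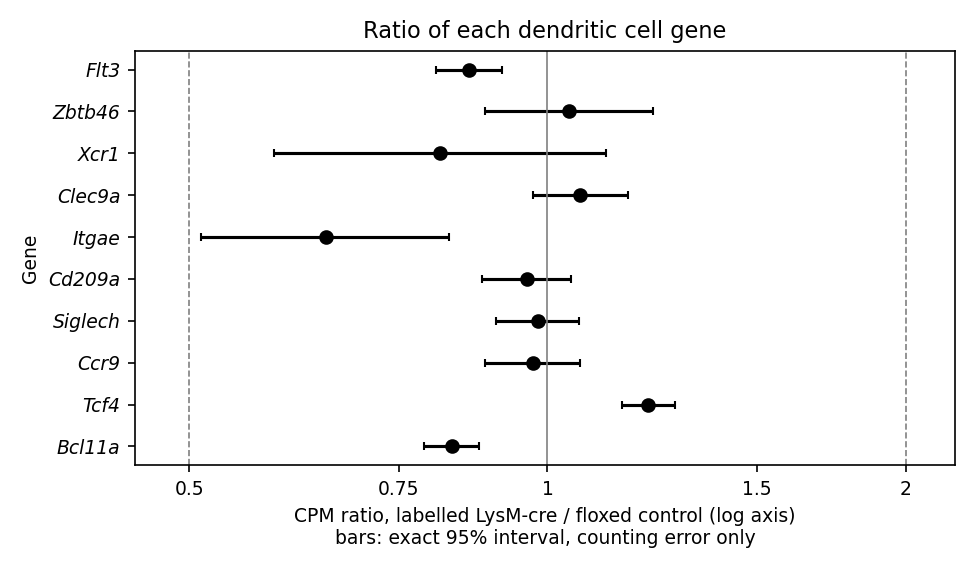
CPM ratio of each dendritic cell gene, LysM-cre-labelled library over floxed control (log axis), with exact 95% intervals that cover counting error only. The solid line is a ratio of 1 and the dashed lines are 0.5 and 2. All 10 intervals lie between the dashed lines, and those of Flt3, Itgae, Tcf4 and Bcl11a do not touch the solid line.

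Flt3, the receptor tyrosine kinase that drives dendritic cell development from progenitors, stood modestly lower in the LysM-cre-labelled library. Flt3 (ENSMUSG00000042817, chromosome 5, 147330741 to 147400489, minus strand, mm10) held 2094 counts in the floxed control and 1795 in the LysM-cre-labelled library, or 5.07 and 4.36 FPKM. The CPM ratio was 0.859 (95% interval 0.806 to 0.915). A difference of at least this size on the log2 scale, in either direction, was found in 42.0% of rows kept. Its ligand gene Flt3l stood at 8.10 and 8.58 FPKM (ratio 1.06, 0.997 to 1.12), so the receptor was on the lower side and the interval of the ligand held 1. Kit, a related receptor of progenitors and mast cells that was picked after its values were seen, stood at 0.948 and 0.633 FPKM (0.673, 0.590 to 0.768).

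Zbtb46, a zinc finger transcription factor that among immune cells marks the conventional lineage and not pDCs, was close to level. Zbtb46 (ENSMUSG00000027583, chromosome 2, 181387762 to 181459426, minus strand) held 299 counts in the floxed control and 311 in the LysM-cre-labelled library, or 0.522 and 0.545 FPKM. The CPM ratio was 1.04 (0.886 to 1.23). At this count, differences of the size of its interval were not detectable.

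The cDC1 genes differed among themselves. Clec9a encodes DNGR-1, which senses actin filaments exposed by dead cells, and it stood slightly on the higher side. Clec9a (ENSMUSG00000046080, chromosome 6, 129408862 to 129424763, plus strand) held 893 and 950 counts, or 4.05 and 4.32 FPKM, with a CPM ratio of 1.07 (0.972 to 1.17). Its row overlaps Clec1b, a platelet and myeloid lectin gene on the same strand with 2400 and 2311 counts, and the non-coding row Gm43914 with 171 and 102. With the overlapping rows summed the ratio was 0.973 (0.927 to 1.02), a value that the larger Clec1b row mostly sets. How reads in the overlap were assigned was not tested. Of the 50-base words in Clec9a transcripts, 4.02% also occur in transcripts of other genes.

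Xcr1 encodes the receptor for the chemokine XCL1, by which cDC1 meet CD8 T cells and NK cells. Xcr1 (ENSMUSG00000060509, chromosome 9, 123852315 to 123862029, minus strand) had the fewest counts of the 10 genes, 90 in the floxed control and 73 in the LysM-cre-labelled library, or 0.300 and 0.245 FPKM. The ratio of 0.813 had a wide interval of 0.588 to 1.12, and a difference was not detectable at this depth. Its ligand gene Xcl1, which is made by NK and T cells, stood at 8.89 and 8.23 FPKM (0.925, 0.785 to 1.09).

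Itgae encodes CD103, the integrin alpha chain found on migratory and intestinal cDC1 and on resident CD8 T cells, and it had the largest difference of the 10 genes. Itgae (ENSMUSG00000005947, chromosome 11, 73090583 to 73147446, plus strand) held 180 counts in the floxed control and 117 in the LysM-cre-labelled library, or 0.583 and 0.381 FPKM. The CPM ratio was 0.651 (0.512 to 0.826), and 15.1% of rows kept had a larger difference in either direction. Haspin, a kinase gene on the other strand within the span of Itgae, held more counts than Itgae itself (476 and 539), and the sources used here do not give how strand was treated in the counting. Itgb7, the beta chain that pairs with CD103, stood at 101 and 107 FPKM (1.05, 1.03 to 1.07), far above Itgae. Cdh1, which encodes the CD103 ligand E-cadherin, stood at 1.78 and 1.73 FPKM (0.974, 0.863 to 1.10). T cell markers stood beside this as 10 higher and 6 lower of 16, with summed levels of 686 and 713 FPKM, and none at 0. The part of T cells in the Itgae value was not tested.

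Cd209a, a C-type lectin gene of cDC2 and monocyte-derived dendritic cells (DC-SIGN family), was the most abundant of the 10 genes in FPKM and close to level. Cd209a (ENSMUSG00000031494, chromosome 8, 3743397 to 3748984, minus strand) held 1093 and 1048 counts, or 10.3 and 9.92 FPKM, with a CPM ratio of 0.961 (0.882 to 1.05). No 50-base word of its transcripts occurs in transcripts of another gene, its paralogs included. Of the 6 paralogs listed, 4 had at least 50 counts and all 4 had ratios below 1. Cd209d stood highest at 11.4 and 10.2 FPKM (0.895, 0.802 to 0.998). Cd209b, Cd209c and Cd209e each stood below 1 FPKM, and the intervals of their ratios held 1. Cd209f had no count in either library, and Cd209g had 2 counts and 0.

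The pDC genes did not share a direction. Siglech encodes a sialic acid-binding lectin of pDCs that signals through the adaptor DAP12, and it was nearly level. Siglech (ENSMUSG00000051504, chromosome 7, 55768178 to 55778925, plus strand) held 1233 and 1208 counts, or 5.44 and 5.34 FPKM, with a CPM ratio of 0.982 (0.906 to 1.06). Tyrobp, the gene of DAP12, which most myeloid cells express, stood at 1111 and 1176 FPKM (1.06, 1.05 to 1.07).

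Ccr9 encodes the receptor for the gut and thymus chemokine CCL25 and is known from pDCs and lymphocytes. Ccr9 (ENSMUSG00000029530, chromosome 9, 123678439 to 123783457, plus strand) held 959 and 930 counts, or 1.40 and 1.36 FPKM, with a CPM ratio of 0.972 (0.887 to 1.06). Of its 50-base words, 20.1% also occur in transcripts of other genes, the highest share of the 10 genes. On the other strand it overlaps Lztfl1 (915 and 834 counts) and the pseudogene row Gm10052 (965 and 1287). Ccl25 itself stood at 0.541 and 0.597 FPKM (1.10, with an interval that held 1).

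Tcf4 was the only gene of the 10 with an interval above 1. Tcf4 (ENSMUSG00000053477, chromosome 18, 69343356 to 69684528, plus strand) held 2662 counts in the floxed control and 3229 in the LysM-cre-labelled library, or 1.45 and 1.76 FPKM. The CPM ratio was 1.22 (1.15 to 1.28), and 34.5% of rows kept had a larger difference in either direction. The other E protein genes and their inhibitors were picked after their values were seen. Tcf12 stood at 2.78 and 3.64 FPKM (1.31, 1.25 to 1.37) and Tcf3 at 14.7 and 15.8 (1.07, 1.03 to 1.12), so the ratios of all 3 E protein genes lay above 1. The Tcf12 row overlaps other rows on both strands, with Gm38057 and A430027C01Rik among those on the same strand. Their part in the Tcf12 value was not tested. Id2, an inhibitor of E proteins that favours cDC1, stood at 91.1 and 78.5 FPKM (0.861, 0.841 to 0.882), and the related Id3 at 2.56 and 3.02 (1.18, 1.01 to 1.38).

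Bcl11a, a zinc finger factor needed for pDCs and B cells, stood on the other side. Bcl11a (ENSMUSG00000000861, chromosome 11, 24078056 to 24174123, plus strand) held 3006 and 2493 counts, or 3.41 and 2.84 FPKM, with a CPM ratio of 0.831 (0.788 to 0.877). A larger difference in either direction was found in 36.0% of rows kept. B cell markers stood lower alongside, with 13 of 14 below a ratio of 1, a median log2 CPM ratio of −0.16, summed levels of 274 and 243 FPKM, and none at 0. The B cell factors Ebf1 and Pax5 are in that list, and the part of B cells in the Bcl11a value was not tested.

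**Figure D3:**
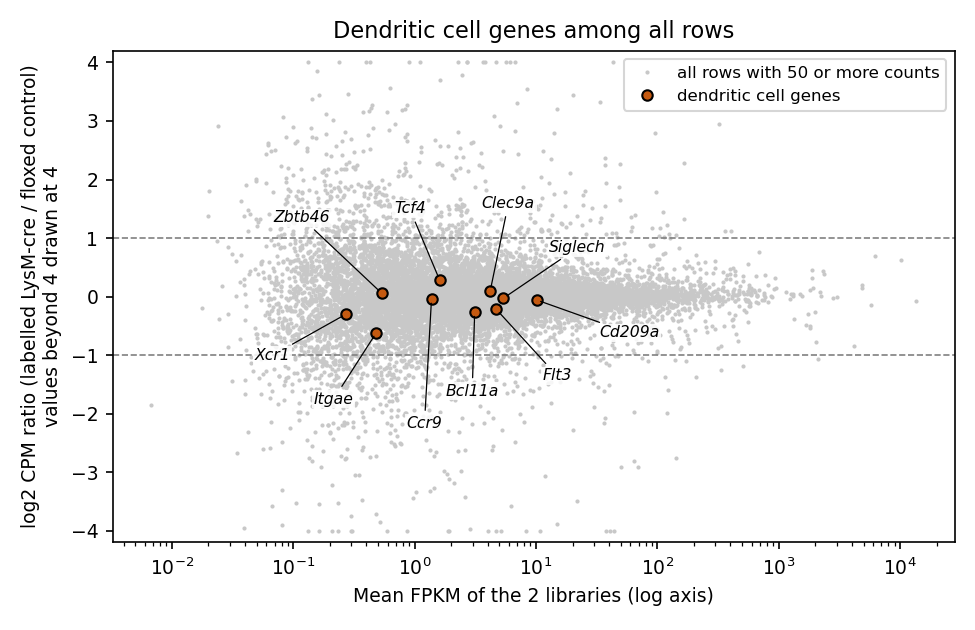
log2 CPM ratio (LysM-cre-labelled library over floxed control) against mean FPKM (log axis) for rows with at least 50 counts over both libraries (grey) and the 10 dendritic cell genes (orange). Rows without a count in 1 library (42) are not drawn, and dashed lines mark 2-fold. The dendritic cell genes lie within the grey cloud, between −0.62 (Itgae) and 0.28 (Tcf4).

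Other genes of dendritic cell development held 1 gene past 2-fold, where 7.53% of all rows kept were. With lists of this size, the counts past 2-fold here and below cannot be told apart from that share. Of 28 genes listed, all kept, 11 had ratios above 1 and 17 below, and the median log2 CPM ratio was −0.06. Irf8, the transcription factor that cDC1 and pDC precursors need and that monocytes and B cells also express, was the gene past 2-fold. Irf8 (chromosome 8, 120736358 to 120756694) held 21524 counts in the floxed control and 10122 in the LysM-cre-labelled library, or 45.7 and 21.5 FPKM (ratio 0.471, 0.460 to 0.482). The only row overlapping it on the same strand, Galnt2l, had no counts. Beside it, the cDC1 and pDC genes described above had no common side: the intervals of Clec9a, Xcr1, Siglech and Ccr9 held 1, those of Itgae and Bcl11a lay below 1 and that of Tcf4 above. Batf3, the partner of IRF8 in cDC1, was picked after its values were seen and stood at 3.53 and 2.92 FPKM (0.827, 0.710 to 0.964). The growth factor receptor genes Csf1r (456 and 481 FPKM), Csf3r (492 and 441) and Csf2ra (78.5 and 102) and the myeloid factor gene Spi1 (154 and 144) were the most abundant of the list. These 4 stood far above the 10 dendritic cell genes.

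Further cDC1 genes were mixed. Of 25 listed, 22 had at least 50 counts, 9 were higher and 13 lower, and the median log2 CPM ratio was −0.01. Gpr141b, a receptor gene, was the one past 2-fold, at 1.67 and 0.783 FPKM (0.470, 0.383 to 0.575), where 7.53% of all rows kept were. The most abundant members are shared with other myeloid cells or lymphocytes. They were Cst3, a protease inhibitor (449 and 488 FPKM), Cd24a (102 and 108), the lysosomal enzyme gene Ppt1 (81.5 and 74.6) and Itgax, which encodes CD11c (44.1 and 51.5). Clnk and Gpr33 had 4 counts each in the floxed control and none in the LysM-cre-labelled library, and Septin3 had 28 and 15.

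The cDC2 list had no gene past 2-fold, where 7.53% of all rows kept were. Of 19 genes, all kept, 9 had ratios above 1 and 10 below (median −0.03). Its most abundant members, which macrophages and monocytes also express, were the lectin genes Clec4a1 (173 and 178 FPKM) and Clec7a (139 and 123), Sirpa (113 and 115) and Cd300a (88.9 and 93.5).

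Further pDC genes were lower more often than higher in the LysM-cre-labelled library. Of 35 genes, all kept, 11 had ratios above 1 and 24 below (median log2 CPM ratio −0.10), and the interval lay below 1 for 19 and above 1 for 4. Over all rows kept, 28.6% had an interval below 1 and 29.0% above. The differences were small, as for Unc93b1, a chaperone of endosomal Toll-like receptors (190 and 175 FPKM), and Ly6c2 (137 and 122). Pld4, an endosomal nuclease, went the other way by little (174 and 176). These 3 genes are also expressed by monocytes, neutrophils or lymphocytes, and neutrophil markers (10 of 12 lower, median −0.26, summed levels of 12948 and 11362 FPKM, none at 0) and the B cell markers given above stood lower as well. Their part in the pDC list was not tested. The exception past 2-fold was the predicted gene Gm21762, at 9.51 and 20.4 FPKM (2.15, 1.94 to 2.39), where 7.53% of all rows kept were past it.

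Class II presentation genes, which dendritic cells share with macrophages and B cells, had no gene past 2-fold, where 7.53% of all rows kept were. Of 12 genes, 4 had ratios above 1 and 8 below (median −0.04), and the interval lay above 1 for 4 and below 1 for 6. Over all rows kept, 29.0% had an interval above 1 and 28.6% below, and intervals are narrow for abundant genes such as these. Of the most abundant members named here, H2-Ab1 had the largest difference (ratio 1.16, 1.15 to 1.18). Cd74, the invariant chain, stood at 1234 and 1274 FPKM, the protease gene Ctss at 864 and 874, H2-Ab1 at 228 and 265 and H2-Aa at 192 and 190. The lowest ratios, named after their values were seen, were those of the peptide-loading gene H2-DMa (0.742, 0.720 to 0.765) and of Ciita, the class II transactivator (0.792, 0.765 to 0.821). The H2-DMa row overlaps Gm50336 on the same strand and Brd2 and other rows on the other strand. The Ciita row overlaps Dexi on the other strand. The part of these rows in the 2 values was not tested.

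Other ligands and partners, and markers of other cells, were read beside these lists. Of the 8 ligands and partners, 5 had ratios above 1 and 3 below (median 0.08). The actin gene Actb, whose product CLEC9A binds, stood at 669 and 864 FPKM, and Hcst, which encodes the adaptor DAP10, at 32.3 and 28.6. Monocyte markers were split, with 7 of 13 above 1 (median 0.08, summed levels of 2180 and 2399 FPKM). The monocyte gene Cx3cr1 was past 2-fold (6.16 and 61.6 FPKM), but its row overlaps Gorasp1, Csrnp1 and Xirp1 on the same strand, so this value is uncertain. Macrophage markers were above 1 for 11 of 13 (median 0.15, summed levels of 2494 and 2777 FPKM), with the scavenger receptor gene Marco past 2-fold (8.83 and 25.9). NK cell markers were above 1 for 6 of 9 (median 0.11). Plasma cell markers were below 1 for 6 of 8 (median −0.07), while Jchain was past 2-fold on the higher side (255 and 555 FPKM). Of 8 epithelial markers, included for the MC38 cells of the co-culture, 4 had at least 50 counts, 2 on each side of 1. The summed level of all 8 was 4.45 and 4.89 FPKM, and Krt19 had no count in either library.

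**Figure D4:**
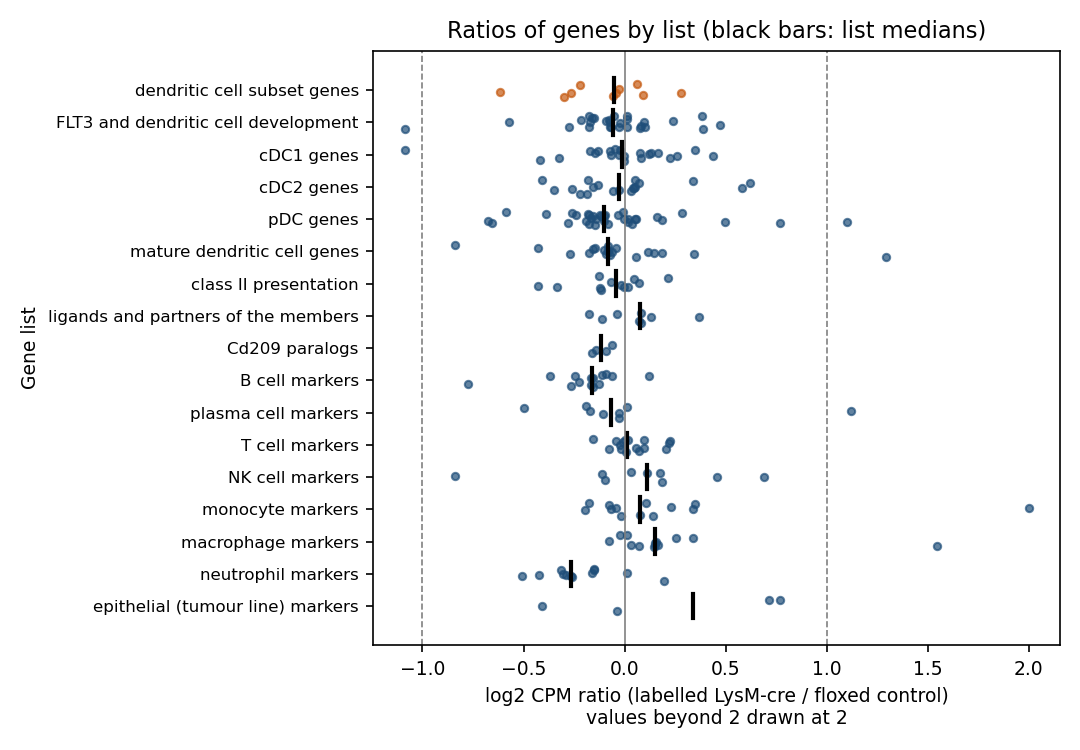
log2 CPM ratio (LysM-cre-labelled library over floxed control) of each gene with at least 50 counts, by list, with the list median as a black bar and 2-fold as dashed lines. The 10 dendritic cell genes (orange, median −0.05) lie around 0 as the further cDC1 (−0.01) and cDC2 (−0.03) lists do, and the neutrophil list lies lower (−0.26).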

How the data were processed

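One table of both libraries was used. Its counts were made by the authors and deposited as whole numbers per gene row, not normalized, and its FPKM values hold the authors' scaling for depth and exon length, per the file headers. The submitters' processing notes name mm10 and, with no roles, StringTie 1.3.4d, HISAT2 2.0.4, cutadapt 1.9, DESeq2 and edgeR. The treatment of strand and of multi-mapping reads is not stated in the sources used here. The 8 columns of 4 other libraries were not used.

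CPM was the count over the library total. The CPM ratio has an exact 95% (Clopper-Pearson) interval taken from the share of a gene's counts in each library, and levels have exact Poisson intervals. Both cover counting error only, since reads from PCR copies are not independent molecules. Rows with at least 50 counts over both libraries were kept, and 2-fold was a fixed rule of size. The total counts, 59506878 and 59393864, make an interval narrow for abundant genes and wide for Xcr1.

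Rows with FPKM 0.0001 had no count and were read as 0. Scaling alternatives used edgeR 4.0.16 (TMM) and DESeq2 1.42.0 (median ratio). The 50-base words came from GENCODE M21 transcripts, both strands. The genes named are the 10, Mettl3, ligands and partners, and from 16 lists (234 symbols) those past 2-fold or up to 4 of the highest mean FPKM, besides genes said to be picked after their values were seen. Values of some list members are left out of the text. The 10 genes and the lists were chosen with earlier results of these data known. The script was tested on simulated data. Python 3.11.15, scipy 1.17.1 and matplotlib 3.10.9 were used.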

Additional observations from a re-analysis of the deposited data

How the results depend on the processing

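No paired analysis was possible because each genotype had 1 library, and for the same reason no library could be left out. All 52 ratios of the 10 genes under other scalings, deposited FPKM, TPM and summed overlapping rows lay inside the interval reported, and 1 (Clec9a, in a sum that Clec1b mostly sets) changed direction. Each of the 10 symbols had 1 row, so no rows of 1 symbol were summed. The count of the 10 genes past the rule moved from 0 to 1 (Itgae) at 1.5-fold and to 4 where the interval left out 1. It stayed at 0 under the other alternatives run. Only 9 genes were kept with a minimum of 200 counts. Only 7 were kept where the mean FPKM was at least 1, which left out Itgae. For all rows the main counts were 628 higher and 596 lower of 16257 rows. Of the same rows, the counts were 160 and 138 on the log2(FPKM + 1) scale and 1382 and 1312 at 1.5-fold. They were 4713 and 4649 where the interval left out 1. Other filters changed the number of rows. The counts were 3634 and 3506 of 24707 with a minimum of 1 count, and 225 and 205 of 13132 with a minimum of 200. They were 276 and 259 of 12526 where the mean FPKM was at least 1, and 327 and 308 of 12798 in protein-coding rows. Depth limits Xcr1, Itgae and Zbtb46 most.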

Other observations

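Genes of mature dendritic cells, which have taken up antigen and migrate to lymph nodes, were detected, with few or no counts for the chemokine genes Ccl17, Ccl19 and Ccl22. Of 22 listed genes, 20 had at least 50 counts, 6 were higher and 14 lower in the LysM-cre-labelled library, and the median log2 CPM ratio was −0.08. The chemokine gene Ccl22 was past 2-fold on few counts, 38 in the floxed control and 93 in the LysM-cre-labelled library (CPM ratio 2.45, 95% interval 1.66 to 3.68). Ccl17 had 0 and 3 counts and Ccl19 none in either library. The most abundant members are also made by T cells, B cells or activated myeloid cells. They were the chemokine gene Ccl5 (127 and 119 FPKM), Marcksl1 (54.7 and 57.0), Cd83 (36.7 and 41.7) and the costimulatory gene Cd86 (32.3 and 35.7).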
